A study of Homo sapiens with 24 samples.

Results

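The ERBB and FGF receptors and the FRS adaptors were followed by PRO-seq, which sequences the ends of nascent RNA and so counts engaged RNA polymerases on each gene. The group has 10 genes of the 60605 in the count table. It holds the 4 ERBB receptors (EGFR, ERBB2, ERBB3 and ERBB4), the 4 FGF receptors (FGFR1, FGFR2, FGFR3 and FGFR4) and the 2 adaptors FRS2 and FRS3. The group was chosen around FRS2, which was higher with dTAG-13 in all 12 pairs of libraries, and the other genes were added by name as the receptors it serves, their relatives and its own. The change of FRS2 with dTAG-13 is therefore described below and is not tested.

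The cells were T47D, an established luminal breast cancer line that carries estrogen receptor. Clones 28, 35 and 39 had TRPS1, a GATA-type zinc finger repressor, fused at its own locus to a degron tag, and the small molecule dTAG-13 brings such a fusion protein to a ubiquitin ligase for degradation. Each clone was treated for 90 minutes with DMSO, the vehicle, or with 100 nM dTAG-13, with 4 replicate dishes for each of the 6 groups and 24 libraries in all. All groups carried the tag, also those in DMSO. The clones were picked after hygromycin selection from an earlier puromycin-selected clone, and in each some copies of TRPS1 were knocked out and only tagged protein was made. Each clone was 1 isolate, so a difference between clones cannot be told apart from other differences between isolates. An untagged line treated with dTAG-13 was not analysed here.

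Total counts ran from 3226718 to 9575803 reads in genes per library, with a median of 5042122. The luminal markers ESR1, PGR, GATA3, FOXA1, KRT8, KRT18 and KRT19 had 292 or more counts in every library, whereas KRT5, KRT14 and VIM, markers of basal or mesenchymal cells, had at most 13. TP63 and ZEB1, also on that list, passed the filter with 22 to 192 and 13 to 38 counts. TRPS1 itself ranged from 5183 to 8747 CPM (counts scaled to each library's total and corrected for its composition) in DMSO and from 6304 to 9296 CPM with dTAG-13, with the higher value in the dTAG-13 library of all 12 pairs, so transcription of the locus does not check the loss of the protein. Replicates of a group were separate dishes harvested one after another within a day, so p-values measure the spread between such dishes. In bulk libraries such as these, fewer cells transcribing a gene and less transcription per cell cannot be told apart.

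ERBB and FGF receptors are tyrosine kinases at the cell surface that dimerise when they bind a ligand and phosphorylate their own tails. ERBB receptors bind adaptors such as GRB2 and SHC1 directly, while FGF receptors act largely through FRS2 and FRS3, membrane-anchored docking proteins that carry GRB2, SOS and SHP2 to the receptor. Both families lead to the RAS-MAPK and PI3K-AKT pathways, and in luminal breast cells ERBB2 with ERBB3 and FGFR1 with FGFR2 are known as growth drivers when amplified or activated.

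All 10 genes passed the filter on low counts. Their gene spans on hg38 differ widely, which matters because a longer gene collects more polymerases at the same density. ERBB4 was the longest at 1163 kb (chr2:211375717-212538841, minus strand, 28 exons in its reference transcript) and FGFR4 the shortest at 11.24 kb (chr5:177086905-177098144, plus strand, 18 exons). FRS2 spans 109.4 kb (chr12:69470349-69579793, plus strand, 9 exons) and FRS3 16.37 kb (chr6:41770176-41786542, minus strand, 7 exons). FGFR2 lies at chr10:121478332-121598458 on the minus strand and FGFR3 at chr4:1793293-1808872 on the plus strand, and FGFR1 spans 68.62 kb. EGFR lies at chr7:55019017-55211628, ERBB2 at chr17:39687914-39730426 and ERBB3 at chr12:56076799-56103505, all on the plus strand. FRS2, FGFR2, FGFR3 and FGFR4 overlap no other annotated gene. ERBB3 shares its strand with the coding gene ENSG00000257411, and EGFR (EGFR-AS1), ERBB2 (PGAP3 and MIEN1), ERBB4 (small pseudogenes), FGFR1 (LETM2) and FRS3 (PRICKLE4 and ENSG00000124593) have antisense partners. The strand setting of the counting was not given in the sources used here, so reads of such partners may be included.

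The promoter sequences of FRS2, ERBB4 and FGFR2 are shown because these 3 genes had the largest differences in level between clones, given below. They are the bases of the RefSeq promoter window (GRCh38.p14) that lie before the annotated gene start, written 5′ to 3′ on the strand of the gene, for FRS2 chr12:69470138-69470348 (plus), for ERBB4 chr2:212538842-212539052 (minus) and for FGFR2 chr10:121598459-121598694 (minus). Capitals mark the letters GGTCA or TGACC, the estrogen receptor half-site read on either strand, and GATA or TATC, the letters that GATA-type zinc fingers bind.
FRS2: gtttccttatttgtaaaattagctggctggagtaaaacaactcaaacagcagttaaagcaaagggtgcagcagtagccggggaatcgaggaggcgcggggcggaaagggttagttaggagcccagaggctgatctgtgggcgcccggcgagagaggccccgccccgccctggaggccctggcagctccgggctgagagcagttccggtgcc
ERBB4: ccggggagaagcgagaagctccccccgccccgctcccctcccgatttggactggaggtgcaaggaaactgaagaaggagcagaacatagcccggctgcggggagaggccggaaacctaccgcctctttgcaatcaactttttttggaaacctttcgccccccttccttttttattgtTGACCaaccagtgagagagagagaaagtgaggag
FGFR2: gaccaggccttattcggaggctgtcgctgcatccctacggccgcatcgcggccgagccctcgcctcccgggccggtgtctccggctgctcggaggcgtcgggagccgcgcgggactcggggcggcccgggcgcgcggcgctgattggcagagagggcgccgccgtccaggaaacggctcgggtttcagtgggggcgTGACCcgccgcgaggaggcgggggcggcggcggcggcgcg
The ERBB4 and FGFR2 stretches each held TGACC, neither held GATA or TATC, and FRS2 held none of the 4 words. FGFR2 has 4 other promoter windows in the table, each with GATA or TATC, and they are not shown. Over the full windows of 300 bases, 8 of the 10 genes had 14 promoters in the table. Of these, 6 held GATA or TATC and 6 held the half-site. Among all 35116 windows of that length, 49.7% held GATA or TATC and 37.4% held the half-site. The matches are a description of letters and not of binding.

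Compared per kb of gene span, the 2 adaptors and 8 receptors covered a wide range of nascent transcription in DMSO. FRS2 was highest with 5.56 ± 1.79 CPM per kb (SD, n = 12 DMSO libraries), at percentile 93.5 of the 14905 coding genes tested. ERBB3, the kinase-impaired receptor that signals as a partner of ERBB2, followed with 4.72 ± 0.881 CPM per kb. The ranges of FRS2 and ERBB3 overlapped. FGFR3 had 2.63 ± 0.366 and ERBB2, the ligand-less receptor, 2.46 ± 0.311 CPM per kb, and these neighbours also overlapped, while every ERBB3 library was above every FGFR3 library.

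FRS3, the relative of FRS2, had 1.64 ± 0.125 CPM per kb, and all its libraries were below those of ERBB2. FGFR4 had 1.18 ± 0.277, FGFR2 1.11 ± 0.455, ERBB4 0.852 ± 0.321 and FGFR1 0.718 ± 0.154 CPM per kb. From FRS3 to FGFR1, each gene overlapped the next in this order. EGFR stood apart at 0.0996 ± 0.0238 CPM per kb, a density 7.20 times below that of FGFR1 and at percentile 12.4 of coding genes, with 61 to 152 counts per library. The wide ranges of FRS2, FGFR2 and ERBB4 divided by clone, as the plot of level per kb shows.

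**Figure D1:**
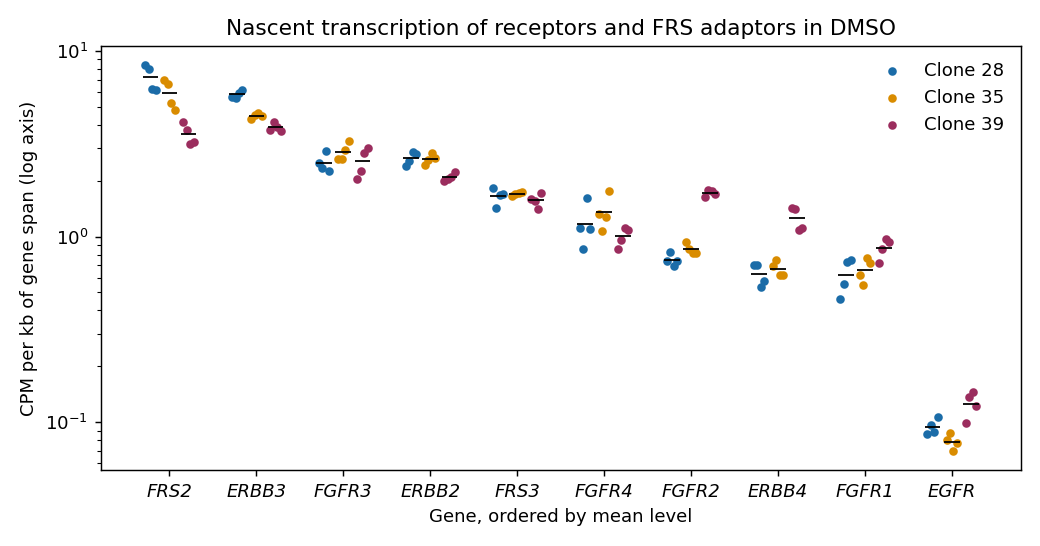
Level of each gene in the 12 DMSO libraries as CPM per kb of gene span on a log axis, with genes in the order of their mean, points for libraries coloured by clone and a bar at the mean of each clone's 4 libraries. FRS2 and ERBB3 lay highest and EGFR lowest. Clone 39 was set apart from both other clones for FRS2, FGFR2 and ERBB4 and, by less, for ERBB3 and ERBB2.

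Treatment with dTAG-13 addresses which genes respond within 90 minutes of TRPS1 loss. FRS2, which was picked for its rise and not tested, was higher with dTAG-13 in every pair, 1.17-fold on average. The receptors and FRS3 were tested, and none passed in the fit with clone and treatment. In Clone 28, FRS2 had 917, 880, 681 and 678 CPM in DMSO replicates 1 to 4 and 1058, 1039, 877 and 819 CPM in the dTAG-13 replicates of the same numbers. In Clone 35 the values were 765, 722, 571 and 529 CPM in DMSO and 835, 788, 757 and 666 CPM with dTAG-13. In Clone 39 they were 451, 408, 347 and 353 CPM in DMSO and 473, 452, 431 and 408 CPM with dTAG-13. Within each clone the ranges of the DMSO and dTAG-13 libraries overlapped, although the mean was higher with dTAG-13 (948, 761 and 441 CPM in Clones 28, 35 and 39, beside 789, 647 and 390 CPM in DMSO).

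FRS2 had a log2 fold change of 0.23 (1.17-fold), and the log2 ratio had an SD of 0.11 over the 12 pairs. By clone, the log2 fold change of FRS2 was 0.27 in Clone 28, 0.24 in Clone 35 and 0.18 in Clone 39. The log2 ratio ran from 0.068, for replicate 1 of Clone 39, to 0.41, for replicate 3 of Clone 35. Averaged over the clones, the FRS2 ratio was 0.13 for the pairs numbered 1, 0.17 for those numbered 2, 0.36 for those numbered 3 and 0.27 for those numbered 4. The pairs numbered 3 and 4 were all at 0.21 or more, and those numbered 1 and 2 reached at most 0.24. A rise in all 12 pairs was found for 81 genes, 0.363% of the 22326 tested. These values chose the gene and are given as a description.

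Of the other 9 genes, 0 passed the threshold of an adjusted p under 0.1 (Benjamini-Hochberg over all genes), against a background of 0.551% of genes (123 of 22326). Their edgeR adjusted p-values ran from 0.891 to 1.000, and DESeq2 also called 0 of them. At an unadjusted p under 0.05, 0 of the 9 passed in this edgeR fit, which has no term for the pairs. The 95% intervals of their log2 fold changes come from the fit without pairs and are not adjusted for the number of genes. ERBB4 lay between -0.031 and 0.20 and ERBB3 between -0.069 and 0.061. FGFR2 lay between -0.051 and 0.092, and FRS3, the relative of FRS2, between -0.12 and 0.10. ERBB2 lay between -0.14 and 0.0072, FGFR3 between -0.22 and 0.015, and FGFR1 between -0.28 and 0.046. The sparsely counted EGFR lay between -0.18 and 0.13, and FGFR4, with the widest of the 9 intervals, between -0.37 and 0.038.

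With a term for each pair of dishes, 521 genes or 2.33% passed, and ERBB4 was the 1 receptor among them. ERBB4, the receptor for neuregulins that also signals through a cleaved intracellular fragment, had a log2 fold change of 0.089 (SE 0.021, edgeR adjusted p = 0.0102 with the block, 0.963 without). ERBB4 in Clone 28 had 815, 816, 621 and 669 CPM in DMSO and 794, 828, 706 and 708 CPM with dTAG-13. In Clone 35 it had 807, 870, 721 and 718 CPM in DMSO and 861, 898, 858 and 813 CPM with dTAG-13. In Clone 39 it had 1664, 1634, 1267 and 1298 CPM in DMSO and 1638, 1665, 1396 and 1387 CPM with dTAG-13.

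In 10 of 12 pairs the dTAG-13 library had the higher ERBB4 value, and the exceptions were the pairs numbered 1 of Clones 28 and 39. Its mean log2 ratio was 0.011 for the pairs numbered 1 and 0.032 for those numbered 2, against 0.19 for those numbered 3 and 0.12 for those numbered 4. As for FRS2, the larger ratios belonged to the later numbers, and whether the ratio depends on the number was not tested. ERBB2 and FGFR1 were lower with dTAG-13 in 9 of 12 pairs each, with adjusted p = 0.384 and 0.207 in the edgeR fit with the block, and the remaining genes ranged up to 0.989. The unadjusted p in that fit was 1.1e-04 for ERBB4, 0.00748 for FGFR1, 0.0250 for ERBB2 and 0.0432 for FGFR3. FGFR3 was lower in 8 of 12 pairs. For the other genes tested the unadjusted p was 0.0632 (FGFR4) or more.

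**Figure D2:**
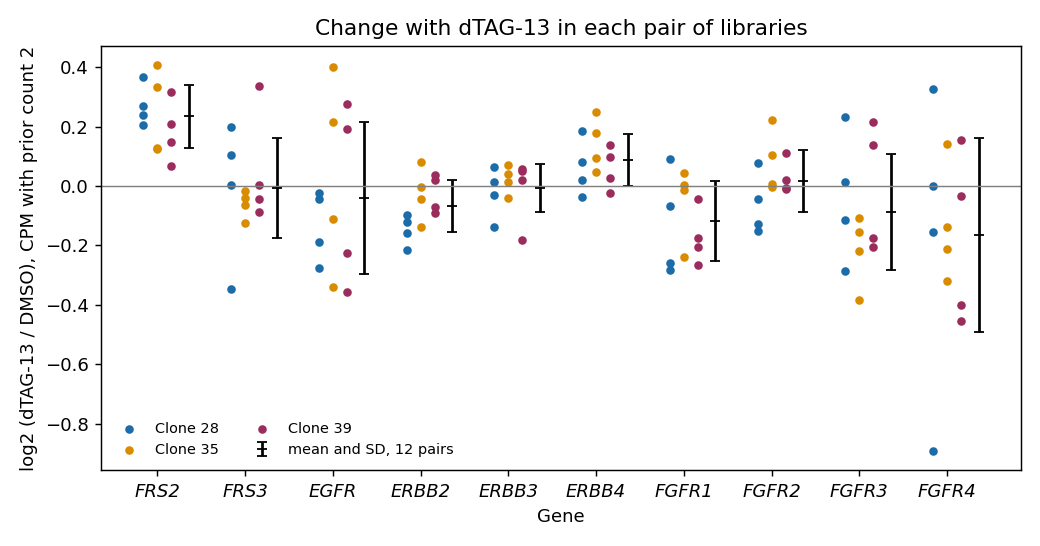
Log2 ratio of dTAG-13 to DMSO for each of the 12 pairs of libraries, coloured by clone, with the mean and SD over pairs in black, computed from CPM with a prior count of 2. The 12 FRS2 points lie above 0, from 0.068 to 0.41, ERBB4 has 10 points above 0, and those of FGFR4 spread from -0.89 to 0.33.

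Whether the response differed between clones was tested for the 9 genes other than FRS2. For the difference of the dTAG-13 effect between clones, edgeR called 0 of the 22326 genes (0%), with 407 genes at an unadjusted p under 0.05, and DESeq2 called 0. None of the 9 genes passed, with unadjusted p of 0.272 or more. With the block 1 gene passed (0.00448%), none of the 9. On simulated counts the test without the block recovered 0% of changed genes at a log2 difference of 0.25 and 23.5% at 0.5. The lack of calls therefore does not show that the clones responded alike. Within single clones, 12 genes (0.0537%) passed in Clone 28, 0 in Clone 35 and 0 in Clone 39, with 1078, 646 and 754 genes at an unadjusted p under 0.05, and the block raised these to 263 (1.18%), 21 (0.0941%) and 16 (0.0717%). None of the 9 genes was among them with or without the block.

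**Figure D3:**
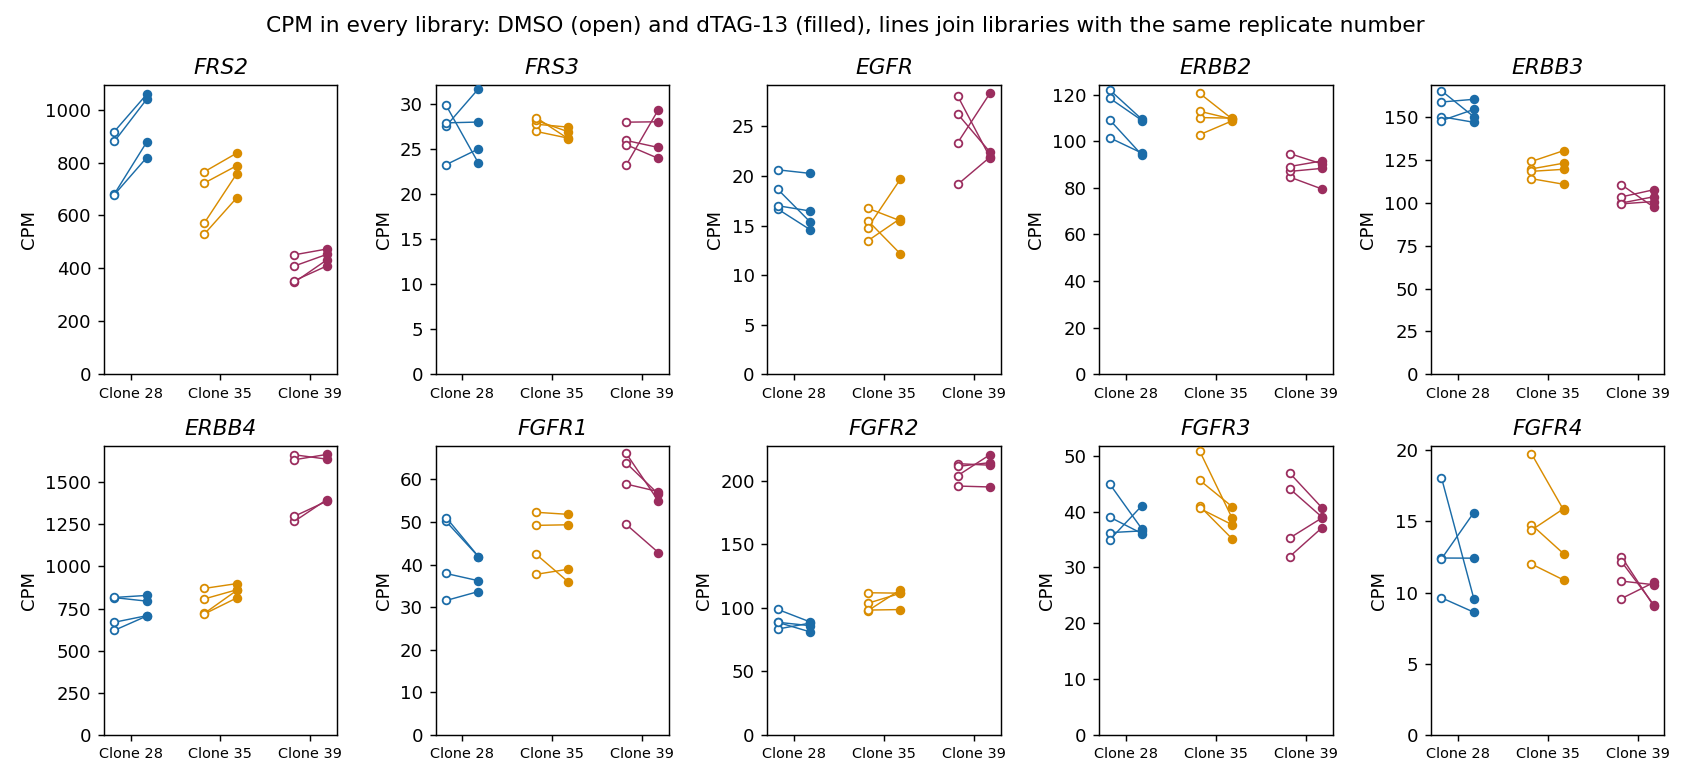
CPM of the 10 genes in all 24 libraries, with DMSO as open and dTAG-13 as filled points, clones in separate columns and colours, and lines joining libraries with the same clone and replicate number. All FRS2 lines slope upward, and Clone 39 lies below the other clones for FRS2 and above them for ERBB4 and FGFR2.

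More genes differed between clones than between treatments. In DMSO, 7 of the 10 genes differed between the 3 clones, against 28.5% of all genes (6361), by edgeR's quasi-likelihood F test with an adjusted p under 0.1. Clone 39 was the clone that stood apart. Against Clone 28, it had more transcription of FGFR2, ERBB4, FGFR1 and EGFR and less of FRS2, ERBB3 and ERBB2, and the same 7 genes passed in the same directions against Clone 35. Of all genes, 26.7% passed between Clones 39 and 28, 12.4% higher and 14.3% lower in Clone 39, and 22.6% between Clones 39 and 35, 9.64% higher and 12.9% lower. The libraries did not overlap for 5 of the 10 genes between Clones 39 and 28 and for 6 between Clones 39 and 35, against 20.8% and 19.9% of all genes. Between Clones 35 and 28, only FGFR2 and ERBB3 passed, against 5.25% of genes, and only the ERBB3 libraries did not overlap, against 8.55%.

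Among the ERBB receptors, ERBB4 in Clone 39 averaged 1466 ± 212 CPM in DMSO (SD, n = 4), against 730 ± 101 in Clone 28 and 779 ± 73.4 in Clone 35. The 4 libraries of Clone 39 all exceeded those of the other clones. The log2 difference was 1.01 (SE 0.11, 2.01-fold, adjusted p = 2.37e-07) from Clone 28 and 0.91 (SE 0.10, 1.88-fold, adjusted p = 9.80e-07) from Clone 35.

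ERBB3 went the other way. It had 150, 148, 159 and 166 CPM in the DMSO libraries of Clone 28, 114, 120, 124 and 118 CPM in Clone 35 and 100.0, 111, 104 and 99.5 CPM in Clone 39, so the 3 clones did not overlap. Clone 39 was 1.51-fold lower than Clone 28 (log2 -0.59, SE 0.060, adjusted p = 1.67e-09) and 1.15-fold lower than Clone 35 (log2 -0.21, SE 0.060, adjusted p = 0.0116). Clone 35 was in turn 1.31-fold lower than Clone 28 (log2 -0.39, SE 0.059, adjusted p = 5.09e-05).

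ERBB2 averaged 88.8 ± 4.31 CPM in Clone 39, below all libraries of Clone 28 (113 ± 9.29) and Clone 35 (112 ± 7.34), with log2 differences of -0.34 (SE 0.068, adjusted p = 2.21e-04) and -0.33 (SE 0.067, adjusted p = 3.61e-04). EGFR, the receptor for EGF and TGF-alpha, had 19.2, 26.3, 28.1 and 23.4 CPM in Clone 39, 16.7, 18.6, 17.0 and 20.6 CPM in Clone 28 and 15.5, 16.7, 13.5 and 14.8 CPM in Clone 35. Clone 39 overlapped Clone 28 but not Clone 35, and its log2 difference was 0.40 (SE 0.14, adjusted p = 0.0421) from Clone 28 and 0.67 (SE 0.14, adjusted p = 4.78e-04) from Clone 35. The call against Clone 28 was lost without any of DMSO replicates 1 and 3 of Clone 28 or 2 and 3 of Clone 39, with adjusted p from 0.101 to 0.153.

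Among the FGF receptors, FGFR2 had the smallest p of the 10 genes. It had 196, 213, 211 and 204 CPM in the DMSO libraries of Clone 39, against 88.5, 98.7, 83.3 and 88.6 in Clone 28 and 112, 104, 97.6 and 98.2 in Clone 35. Clone 39 was clear of the other clones, by 2.29-fold from Clone 28 (log2 1.20, SE 0.064, adjusted p = 3.63e-16) and by 2.01-fold from Clone 35 (log2 1.01, SE 0.063, adjusted p = 2.87e-14). Clone 35 was 1.14-fold above Clone 28 with overlapping libraries (log2 0.19, SE 0.064, adjusted p = 0.0987). That call was lost when any library other than DMSO replicate 2 of Clone 28 was left out, with adjusted p up to 0.357. It was also lost with RLE scaling (adjusted p = 0.127), with DESeq2 (0.162), with no filter on low counts (0.247) and in the 12 DMSO libraries alone (0.197), and it passed with the block and in the dTAG-13 libraries (log2 0.34, adjusted p = 7.84e-04).

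FGFR1 averaged 59.6 ± 7.42 CPM in Clone 39, 42.7 ± 9.52 in Clone 28 and 45.4 ± 6.58 in Clone 35, and the libraries of all clones overlapped. Its log2 differences were 0.47 (SE 0.15, adjusted p = 0.0275) and 0.38 (SE 0.15, adjusted p = 0.0778). The call against Clone 35 was lost without any of DMSO replicates 1 and 2 of Clone 35 or 2, 3 and 4 of Clone 39, with adjusted p from 0.124 to 0.191. It was also lost with library totals alone (adjusted p = 0.140), with no filter on low counts (0.214) and in the dTAG-13 libraries (0.308). FGFR3 and FGFR4 did not pass (adjusted p = 0.239 and 0.195 over the 3 clones), with FGFR4 at 13.1 ± 3.55, 15.2 ± 3.26 and 11.3 ± 1.36 CPM in Clones 28, 35 and 39. For FGFR4 the difference of Clone 39 from Clone 35 (log2 -0.45, SE 0.19, adjusted p = 0.101) passed with the block (adjusted p = 0.0231). With no filter on low counts this difference passed as well (adjusted p = 0.0431). The same held with at least 10 counts in every library (0.0889) and in the dTAG-13 libraries (0.0684). It also passed without DMSO replicates 2 or 3 of Clone 28 or 2 of Clone 35, or dTAG-13 replicates 2 or 4 of Clone 28 or 2 of Clone 35 (adjusted p from 0.0527 to 0.0936), and FGFR3 did without DMSO replicate 4 of Clone 39 (log2 -0.27, adjusted p = 0.0771). With the replicate number as a covariate, 9 of the 10 genes passed, against 39.7% of all genes, and FGFR3 and FGFR4 were the added genes, with adjusted p = 0.0733 and 0.0533.

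Between the adaptors, FRS2 averaged 390 ± 49.4 CPM in the DMSO libraries of Clone 39, 789 ± 127 in Clone 28 and 647 ± 114 in Clone 35. Each of the 4 Clone 39 values given above lay below every DMSO value of the other clones. FRS2 was 2.02-fold lower in Clone 39 than in Clone 28 (log2 -1.02, SE 0.13, adjusted p = 8.13e-06) and 1.66-fold lower than in Clone 35 (log2 -0.73, SE 0.13, adjusted p = 3.76e-04). The difference between Clones 35 and 28 did not pass (log2 -0.29, SE 0.13, adjusted p = 0.328), but passed with the replicate number as a block (adjusted p = 1.42e-05). FRS3 had 23.2 to 29.8 CPM over the 12 DMSO libraries and did not pass (adjusted p = 0.692), with a log2 difference of -0.074 (SE 0.10) between Clones 39 and 28.

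The dTAG-13 libraries were separate dishes of the same clones, and the clones were compared in them too. In them FGFR2 was 2.45-fold higher and FRS2 2.15-fold lower in Clone 39 than in Clone 28, and the log2 difference of ERBB4 was 1.00, with adjusted p = 4.52e-17 for FGFR2, 2.60e-06 for FRS2 and 2.32e-07 for ERBB4. FGFR1 did not pass there between Clones 39 and 35. Of the pathway lists below, 0 FGF ligands, 1 ERBB ligand and 5 PI3K-AKT genes differed between clones in the dTAG-13 libraries, beside 1, 2 and 8 in DMSO. The share of all genes that differed in the dTAG-13 libraries is not given here, so those counts have no background beside them. This comparison was chosen after seeing the data.

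The genes near FRS2 were set beside it to show how local its clone difference was. Within 250 kb, 8 genes were tested. YEATS4, CCT2, RAB3IP and MYRFL were lower in Clone 39 than in Clone 28, with log2 differences from -0.44 to -0.35 beside -1.02 for FRS2. None was higher, where 14.3% of all genes were lower and 12.4% higher. The median of the 8 was -0.27, where that of all genes was -0.0015. YEATS4, CCT2 and RAB3IP were also lower in Clone 35 than in Clone 28, with CPSF6 and ENSG00000258052, where 3.01% of all genes were lower. Against Clone 35, none of the 8 was lower in Clone 39 and ENSG00000258052 was higher, whereas FRS2 was lower in that comparison too. Of all genes, 12.9% were lower and 9.64% higher there.

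For FGFR2, the 1 tested neighbour within 250 kb, ATE1, had a log2 difference of 0.091 between Clones 39 and 28 that did not pass (adjusted p = 0.417). For ERBB3, 17 of 37 neighbours were lower in Clone 39 than in Clone 28 and 0 were higher, with a median of -0.24, where 14.3% of all genes were lower. Of the 37 neighbours, 15 were lower in Clone 35 than in Clone 28, where 3.01% of all genes were lower. Against Clone 35, 3 were higher and 3 lower in Clone 39, beside 9.64% and 12.9% of all genes. ENSG00000257411, counted among the neighbours of ERBB3, overlaps it on the same strand. SMARCC2 and ENSG00000258199 both lie 58.9 kb away. Such genes may share reads, so the neighbour counts may not be of separate genes. VOPP1 and ELDR near EGFR, 2 of its 4 neighbours, were higher in Clone 39 than in Clone 28, by log2 0.69 and 1.28. Of all genes, 12.4% were higher. For dTAG-13, the adjusted p of the 8 neighbours of FRS2 was 0.419 or more with the block. DNA copy number was not analysed here, and its part in these differences was not tested.

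**Figure D4:**
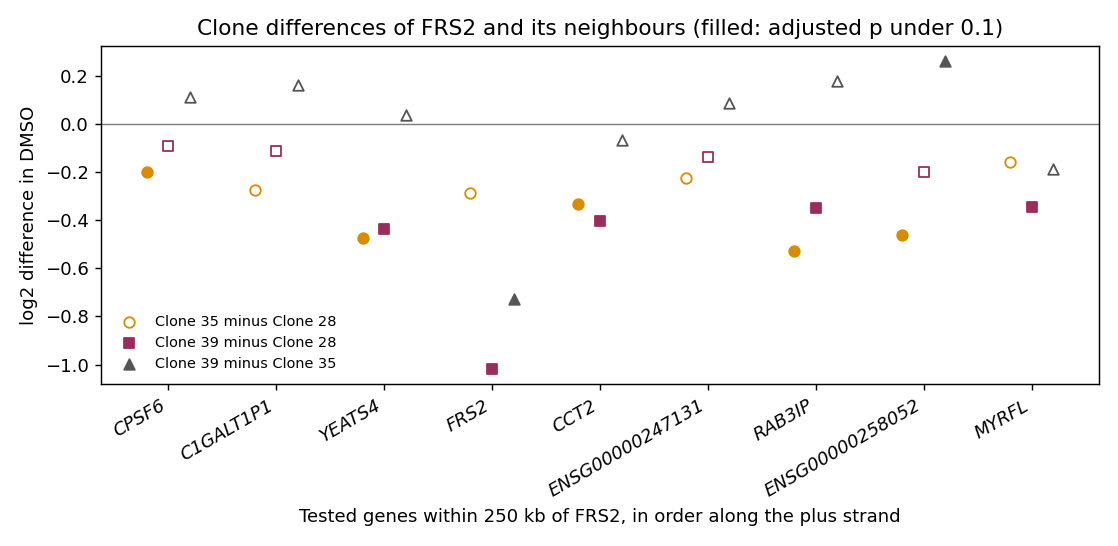
Log2 difference between clones in DMSO for FRS2 and the 8 tested genes within 250 kb, in order along the plus strand, with filled symbols where the adjusted p is under 0.1. FRS2 is lowest, at -1.02 for Clone 39 against Clone 28 and -0.73 against Clone 35, and the neighbours lie between -0.44 and -0.091 in the first of these.

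The replicate number was taken to stand for the collection time of the dishes. Over the 6 groups, 7 of the 10 genes differed by number, against 37.2% of all genes (8306). These included FGFR3 and FGFR4, which did not pass between clones, and not ERBB3 and FGFR2, which did. DESeq2 called 5239 genes and 4 of the 10, FRS2, ERBB4, FGFR1 and ERBB2, with adjusted p = 0.126 for FGFR3, 0.120 for FGFR4 and 0.129 for EGFR. FRS2 deviated from its group means by log2 0.19, 0.11, -0.11 and -0.19 for numbers 1 to 4 (edgeR adjusted p = 6.16e-10). ERBB4 deviated by 0.10, 0.14, -0.12 and -0.12 (adjusted p = 1.87e-08). FGFR1 went the opposite way, with -0.25, -0.086, 0.18 and 0.16 (adjusted p = 4.78e-08).

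ERBB2, FGFR3, FGFR4 and EGFR also passed, with adjusted p = 0.00414, 0.0180, 0.0193 and 0.0241, and all 4 had higher values for numbers 3 and 4 than for number 1. EGFR was lowest for number 1, by -0.17, and highest for number 4, by 0.17. ERBB3, FGFR2 and FRS3 did not pass (adjusted p = 0.138, 0.455 and 0.433). The range of FRS2 over the numbers, 0.37 on the log2 scale, exceeded its mean change with dTAG-13.

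**Figure D5:**
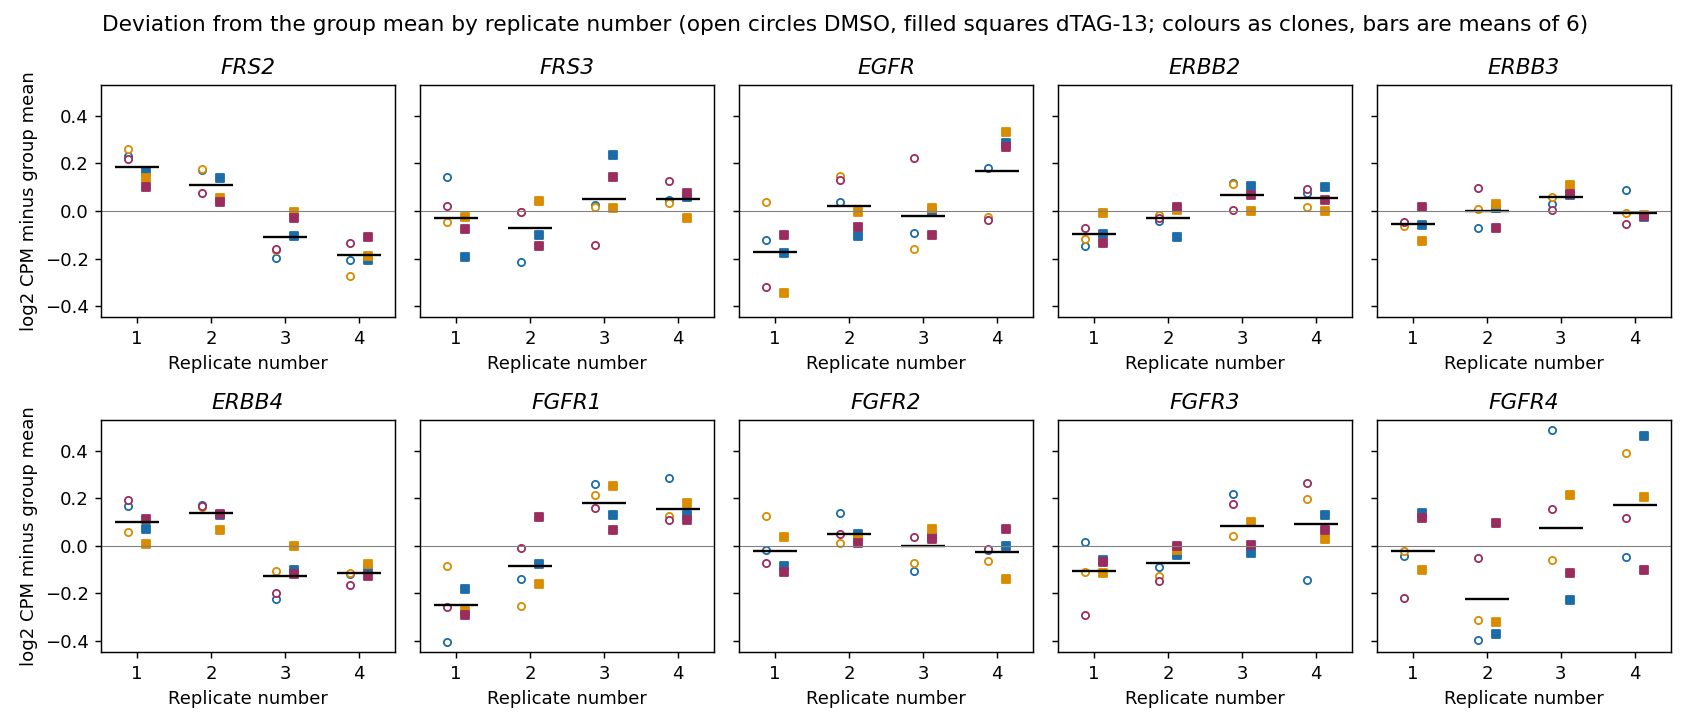
Deviation of log2 CPM from the mean of each group of 4 libraries by replicate number, with open circles for DMSO, filled squares for dTAG-13, colours for clones and bars at the mean of the 6 libraries with that number. FRS2 and ERBB4 are above their means for numbers 1 and 2 and FGFR1 below, and FGFR2 shows no such order.

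Over the 24 libraries, with each clone's mean subtracted, FRS2 moved with ERBB4 (Pearson r = 0.845) and against FGFR1 (r = -0.809) and ERBB2 (r = -0.801). ERBB2 and FGFR1 moved together (r = 0.750). These are descriptions, since the libraries share collection times, treatments and depth. Across all genes, the most similar patterns to FRS2 were those of TRPS1 (r = 0.978), NCAM2 (0.963), INPP4B (0.963), PATJ (0.960) and RESF1 (0.958). Only clone means were subtracted, so the change of FRS2 with dTAG-13 was part of the pattern that these genes were matched to. All 12 pairs of each gene rose as those of FRS2 did, which is therefore not a separate finding.

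Around the receptors and adaptors, 8 lists of pathway genes with 99 genes in all were examined, of which 77 passed the filter. With dTAG-13, 0 of the 77 passed in the edgeR fit of clone and treatment, with 12 at an unadjusted p under 0.05. With the block 3 were higher and 5 lower. The background was 0.551% in either direction without the block, and 1.4% higher and 0.932% lower with it. The median log2 fold change of the 77 was 0.0036, beside -0.0018 for all genes. The 8 genes that passed with the block are named after their values were seen. Higher were GAB1, an adaptor for SHP2 and PI3K (log2 0.11, adjusted p = 0.0725), PIK3R1, the regulatory subunit of PI3K (0.10, 0.0578), and LRIG1, which promotes turnover of ERBB receptors (0.12, 0.0141).

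Lower with the block were the heparan sulfate proteoglycans GPC1 (log2 -0.18, adjusted p = 0.00237), in 12 of 12 pairs, and SDC1 (-0.22, 0.0287), which present FGF ligands, and FGFRL1, a receptor without a kinase domain (-0.20, 0.0710). CBLC, a ubiquitin ligase of the CBL family (-0.18, 0.0151), and CCND1, cyclin D1 and a target of ERK signalling (-0.12, 0.0141), were lower as well. Between the clones in DMSO, 32 of the 77 passed (41.6%), as against 28.5% of all genes. For the counts of each list below, the background is the same 28.5%, or 39.7% with the block. With so few genes per list, those counts are descriptions. The median log2 difference between Clones 39 and 28 was 0.77 for the 3 FGF ligands that passed the filter and lay between -0.11 and 0.12 for the other 7 lists, beside -0.0015 for all genes.

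The ligands were sparse. Of the 18 FGF ligands 3 passed the filter, and the other 15 had at most 14 counts in any library. FGF8 was higher in Clone 39 than in Clone 28 (log2 0.77, SE 0.21, adjusted p = 0.00746), with 14 to 51 counts, and 2 of the 3 passed over the clones with the block or without any of DMSO replicates 3 of Clone 28, 2 or 3 of Clone 35 or dTAG-13 replicate 1 of Clone 35. Of the 11 ERBB ligands 8 passed the filter and 2 differed between clones. TGFA was higher in Clone 39 than in Clone 28 (log2 0.33, SE 0.086, adjusted p = 0.00496) and EGF lower (log2 -0.63, SE 0.20, adjusted p = 0.0197). The 2 became 1 without DMSO replicate 4 of Clone 28 and 4 without DMSO replicate 1 of Clone 35.

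Of the 8 co-receptors, decoys and sheddases, 6 passed the filter and 2 differed. SDC4, a syndecan, was 1.65-fold lower in Clone 39 than in Clone 28, and ADAM10, a protease that sheds ligands, was 1.25-fold higher. Of the 11 adaptors, 5 differed (8 with the block), with NCK1 1.43-fold and CRKL 1.20-fold lower and SOS1, the RAS exchange factor that FRS2 recruits through GRB2, 1.21-fold higher in Clone 39 than in Clone 28. Their adjusted p-values for this pair of clones ran from 2.37e-07 for NCK1 to 0.0197 for ADAM10.

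In the RAS-MAPK core 6 of 13 genes differed between clones. SHOC2, a scaffold of the MAPK pathway, was higher in Clone 39 than in Clone 28 by log2 0.38 and NF1, a RAS inactivator, by log2 0.28. In the PI3K-AKT core 8 of 11 differed. That count was 5 without DMSO replicate 2 of Clone 28, in the 12 DMSO libraries alone and at a threshold of 0.05. PIK3CB was 1.84-fold lower (log2 -0.88, SE 0.055, adjusted p = 2.53e-14) and PIK3CA 1.37-fold lower, both catalytic subunits of PI3K.

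Of the 17 feedback inhibitors 7 differed. LRIG3 was 2.72-fold lower in Clone 39 than in Clone 28 (log2 -1.45, SE 0.13, adjusted p = 1.94e-09) and SPRED1, which inhibits RAS activation, higher by log2 0.93 (SE 0.14, adjusted p = 4.16e-06). SPRY4 was 5.03-fold higher on 2 to 39 counts per library. Of the 10 ERK output genes 8 passed the filter and 1 (4 with the block) differed over the 3 clones, PHLDA1, being 1.46-fold higher in Clone 39 than in Clone 28. That count was 2 with library totals, with no filter, with the stricter filter and without DMSO replicate 2 of Clone 35 or 1 of Clone 39 or dTAG-13 replicate 1 of any clone or 2 of Clone 28, and 4 without DMSO replicate 2 of Clone 28.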

How the data were processed

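PRO-seq libraries came from 3 T47D clones with degron-tagged TRPS1 (28, 35 and 39), in 6 groups of 4 replicates set by clone and treatment in the sample labels. The authors deposited raw read counts for every gene in each library, on hg38, made by adapter removal (cutadapt 1.8.1), removal of duplicates by UMI (fqdedup), alignment with Bowtie2 2.4.4 and SAMtools 1.9 (versions from the submitters' processing notes) and counting with bedtools. The annotation and strand setting of the counting were not given in the sources used here. Of 60605 identifiers, 60463 matched GENCODE release 44, which gave names and spans.

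Tests were run in edgeR 4.0.16 under R 4.3.3. After filterByExpr (minimum count 10) 22326 genes remained, and the libraries were scaled by TMM and tested by robust quasi-likelihood fits with Benjamini-Hochberg adjustment over all genes and the threshold of 0.1 that the study's methods use. dTAG-13 was compared with DMSO in a model of clone and treatment, and clones, single clones and the difference between clones in a model of the 6 groups. Replicate number was tested beside the 6 groups. Intervals are 1.96 standard errors on either side. CPM used TMM library sizes, log2 CPM a prior count of 2, and CPM per kb the gene span. The members and gene lists were chosen with earlier results of these data known. Genes were named by rule: the 10 members, TRPS1, up to 3 per list with the smallest p among those passing in each comparison, and the 5 genes most correlated with FRS2. Some genes that the rule names are not reported here. Genes passing only with the block were named after seeing the values, as were neighbours within 250 kb.

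Pairs share a clone and number. Pairs were matched by the number in the sample titles, which give no harvest times. The study's methods say that replicates were handled at separate times within a day, with both treatments harvested together. That dishes of the same number share a time was taken from this. The correlation of deviations from group means was 0.0926 to 0.318 over the 12 pairs (mean 0.185). Correlations between libraries of unlike number are not given here. Counts of any 2 libraries of a group differed by a chi-square of at least 1.64 per degree of freedom (36 pairs), so none was a duplicate. On simulated counts for the dTAG-13 comparison with 200 of 22326 genes changed, 41% were recovered at a log2 change of 0.25 and 77.5% at 0.5, and for the clones 1.5% and 51.5%. For the difference of the dTAG-13 effect between clones, 0% and 23.5% were recovered. Simulated counts were drawn independently for each library, with no effect shared within a pair or number. In the real data 28.5% of genes differed between clones and 37.2% by number, so these rates need not hold for the fits used here. Alternatives were other scalings, filters, DESeq2 1.42.0, the block, a threshold of 0.05, the 12 DMSO libraries alone, leaving out each clone or library, and, added after seeing the data, clones compared in the dTAG-13 libraries.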

Additional observations from a re-analysis of the deposited data

Results flagged for a closer look

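In 60 groups of 4 libraries (10 genes in 6 groups), 3 had a library far from the other 3, judged by the gap to its nearest neighbour as a share of the group's range. Chance flags about 1 in 20 groups, so about 3 would be flagged. EGFR in Clone 39 with dTAG-13 had 28.4 CPM in replicate 4 and 21.9 to 22.4 CPM in the others (share 0.917). FGFR1 in the same group had 42.8 CPM in replicate 1 and 55.0 to 57.2 CPM in the others (share 0.846). FGFR3 in Clone 28 with dTAG-13 had 41.1 CPM in replicate 4 and 36.1 to 36.8 CPM in the others (share 0.845). None of these groups belonged to FRS2, ERBB4 or FGFR2, and the cause was not tested.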

How the results depend on the processing

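For dTAG-13 against DMSO, 123 genes were called, and 197 with no filter on low counts, 64 at a threshold of 0.05, 521 with the replicate block, 1 without Clone 28, 37 without Clone 35 and 37 without Clone 39, and 66 to 149 with 1 library left out. The count was lowest without DMSO replicate 4 of Clone 28 (66) or 3 (78) or its dTAG-13 replicates 2 (67) or 1 (75), dTAG-13 replicate 3 of Clone 35 (77) or DMSO replicate 3 of Clone 39 (80). Of the 9 genes other than FRS2, 1 (ERBB4) was called with the block. The difference between clones gave 6 genes with no filter and 1 with the block. Within clones the block gave 263, 21 and 16 genes. For replicate number, DESeq2 called 5239 genes and 4 of the 10. The block changed no other call among the 10 genes than those given in the report. Changes of sign were all in differences that did not pass the test. ERBB2 between Clones 35 and 28 was 0.0064 with library totals and 0.10 in the dTAG-13 libraries, where FRS3 between these clones was -0.028 and FGFR3 between Clones 39 and 35 was 0.025. For dTAG-13, EGFR was 0.029 and ERBB3 0.0061 without Clone 28, FGFR2 -0.012 and FRS3 0.026 without Clone 35, and ERBB3 0.0013 without Clone 39. With 1 library left out, between Clones 35 and 28 ERBB2 ran from -0.063 to 0.018, FGFR1 from -0.024 to 0.18 and FRS3 from -0.036 to 0.087, and FGFR3 between Clones 39 and 28 from -0.072 to 0.12. With dTAG-13, EGFR ran from -0.066 to 0.0035, ERBB3 from -0.018 to 0.0062 and FRS3 from -0.035 to 0.0100. The other values of the 10 genes kept their direction, and the cause of the changes was not tested. Depth limits FGFR4 and EGFR, with at least 29 and 61 counts per library.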
